A study of Rattus norvegicus with 32 samples.

Results

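Kupffer cell and macrophage markers were examined in rat liver through 10 genes, Lyz2, Cd5l, Clec4f, Cd163, Adgre1, C1qa, C1qb, C1qc, Cd68 and Csf1r, of the 13437 genes that the array measured with a probe set assigned to a single gene. The members were named by symbol, and where a gene had several probe sets the brightest over the 32 arrays was used. All 10 were present, and all 10 passed the filter on low values that left 11625 genes for testing. Cd5l was the only member with a second probe set, which was dim (82.1 to 164.8 intensity units) and fell below the filter. Adgre1 was also dim, at 110.2 to 213.9 units.

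Liver RNA from male Wistar Kyoto rats was hybridised to Affymetrix HT-Rat-230 PM arrays after inhalation of ozone or filtered air, to describe how ozone alters the liver transcriptome. Rats had an age of 10 weeks and a body weight of 250 to 300 g. Ozone rats breathed 1 ppm ozone for 6 h per day and control rats breathed filtered air for the same time. Harvest followed directly on the day 1 exposure (6 ozone, 6 air), directly on the day 2 exposure (5 ozone, 5 air), or came 18 h after the day 2 exposure (5 ozone, 5 air); the first 2 are called the end of day 1 and the end of day 2. All groups share strain, sex and age, and each array was labelled as a separate replicate without stating whether it came from a separate rat, so p-values measure the spread between arrays. The tissue was whole liver, so every value below mixes the RNA of hepatocytes with that of the other liver cells.

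Kupffer cells are the resident macrophages of the liver sinusoids. They clear particles, microbes, lipoproteins and aged red cells from portal blood, and they depend on signalling through the CSF1 receptor. CLEC4F is a lectin found on rodent Kupffer cells, CD5L is a secreted protein of tissue macrophages, and C1QA, C1QB and C1QC are the chains of the C1q molecule that starts the classical complement pathway and is made mostly by macrophages rather than hepatocytes.

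Array quality was even in most respects. Array medians lay between 146.6 and 160.6 units and correlations between arrays lay between 0.965 and 0.997. A few arrays stood apart. The 3′ to 5′ signal ratio of the beta-actin control was 3.5 in 18 h ozone replicate 5, against 2.16 to 2.89 in the other arrays. The median of the nonspecific-binding control probe sets was 54.3 in day 1 air replicate 2 and 66.1 in day 1 ozone replicate 3, against 85.2 to 92.0 in the other arrays. By root mean square distance over the tested genes, 23 of 32 arrays lay nearest to the mean of their own group and 9 lay nearer to another, among them day 2 ozone replicate 5, nearest to the 18 h ozone mean, and day 2 air replicate 5, nearest to the day 2 ozone mean. Day 2 air replicates 1 and 2 were also among the 9, nearest to the day 1 air mean. The summed intensity of 9 hepatocyte genes, albumin among them, lay between 72455 and 83014 units in every array.

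Lyz2 encodes lysozyme, the bacterial cell-wall enzyme of macrophages and other myeloid cells, and it was the member that differed most clearly with ozone. At the end of day 1 its intensity in ozone livers was 774 at the lowest, 863 at the median and 940 at the highest, against 1200, 1325 and 1516 in air livers. The ranges did not overlap, a separation in this direction that 8.76% of all genes tested also showed. Lyz2 fell by 0.63 ± 0.09 on the log2 scale (SE), a 1.55-fold difference (adjusted p = 3.8e-06, limma, Benjamini-Hochberg over all 11625 genes tested). Its p ranked 229 of 11625, and the call held under all 32 single-array omissions and all 12 other alternatives. Fewer macrophages or other myeloid cells in the liver and less Lyz2 RNA per cell cannot be told apart in whole tissue. RefSeq places a second lysozyme gene, Lyc2, beside Lyz2 on chromosome 7, and whether its transcript also reaches this probe set was not tested.

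On day 2, directly after exposure, the ozone livers had 814, 817, 757, 741 and 1048 units of Lyz2, against 1187, 1163, 1101, 1310 and 814 units in air livers. In each group 4 of the 5 arrays separated cleanly, while ozone replicate 5 lay high and air replicate 5 lay low, inside the range of the opposite group. Lyz2 fell by 0.40 ± 0.10 (SE, log2) in ozone livers, with an adjusted p of 0.046 (limma) just under the threshold of 0.05. That call was lost in 20 of 32 single-array omissions (adjusted p up to 0.21, without air replicate 4), among them every day 2 array other than replicate 5 of either group, and at an adjusted p of 0.32 when only the day 2 groups entered the fit. Without 4 arrays that an earlier look at these data had marked as closer to another group, ozone replicate 5 and air replicate 5 among them, the difference was -0.59 ± 0.07 (SE; adjusted p = 4.6e-07, limma). The other 2 were 18 h air replicates 1 and 5, and the 4 are part of the 9 arrays that lay nearer to another group. Those 4 arrays were picked by their expression, so the larger value is a description of what they contribute.

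At 18 h after day 2 the ozone livers had 1028, 1126, 1033, 1076 and 1057 units of Lyz2, against 1031, 1036, 930, 1011 and 1310 units in air livers. The ozone range lay inside the air range, and the difference was 0.01 ± 0.10 (SE, log2; adjusted p = 0.99, limma). The ozone effect on Lyz2 was therefore 0.64 ± 0.13 (SE, log2) more positive at 18 h than at the end of day 1 (adjusted p = 0.00083, limma), a contrast in which 12.4% of all genes were called in the same direction. Mean levels differed between these times on both sides. The mean log2 level was 9.77 on day 1 and 10.08 at 18 h in ozone livers, against 10.4 and 10.07 in air livers. Lyz2 was the only member called there, and the call held under every single-array omission and every other alternative run. The change of the ozone effect was 0.23 ± 0.13 (SE; adjusted p = 0.37, limma) for day 2 minus day 1, where 5.09% of all genes and no member were called. It was 0.41 ± 0.14 (SE; adjusted p = 0.38, limma) for 18 h minus day 2, where 0.0086% of all genes and no member were called, and without day 2 air replicate 5 it was 0.52 ± 0.12 (SE; adjusted p = 0.023, limma). Among ozone livers alone, Lyz2 was higher at 18 h than at the end of day 2 by 0.35 ± 0.10 (SE, log2; adjusted p = 0.017, limma), where 7.1% of all genes were called higher. The adjusted p passed 0.05 without day 2 ozone replicate 3 (0.061) or replicate 4 (0.069).

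**Figure D1:**
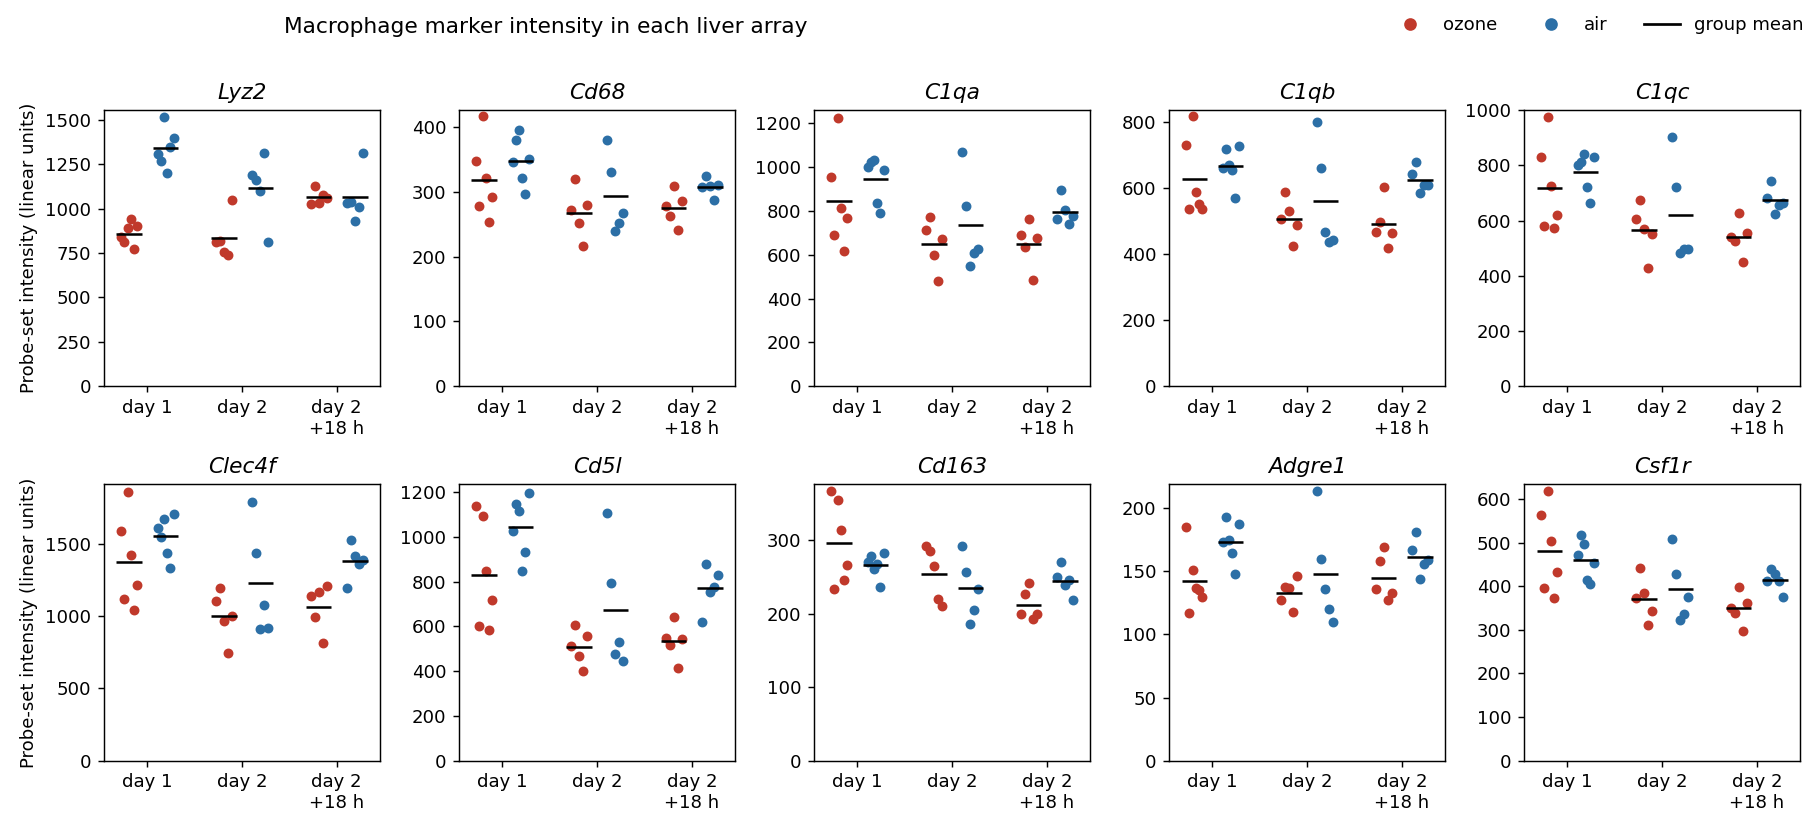
Linear probe-set intensity of each marker (vertical axis from 0) in every array, with ozone (red) left of air (blue) at the end of day 1, at the end of day 2 and 18 h later, and black bars at the group means. Lyz2 separates ozone (774 to 940) from air (1200 to 1516) at day 1, while the other 9 markers overlap between ozone and air at each time.

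The 3 C1q chains are encoded side by side on chromosome 5 (C1qb, C1qc, C1qa in RefSeq order). None of them passed the test between ozone and air at any of the 3 times. On day 1 C1qa lay between 618 and 1223 units in ozone livers and between 790 and 1030 units in air livers, with a difference of -0.19 ± 0.14 (SE, log2). C1qb differed by -0.10 ± 0.12 and C1qc by -0.14 ± 0.13 at that time. The ozone arrays were more widely spread than the air arrays for all 3 chains. The SDs were 218, 119 and 160 units for C1qa, C1qb and C1qc in ozone livers and 104, 56.8 and 70.6 units in air livers. The highest ozone value of each chain (1223, 816 and 974 units) came from replicate 3, an array of low nonspecific binding. That difference in spread was not tested.

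At 18 h the 3 chains had their most negative differences. C1qb had 468, 496, 603, 417 and 465 units in ozone livers, against 643, 678, 585, 609 and 608 units in air livers. A single ozone array, replicate 3, reached into the air range. The C1qb difference was -0.35 ± 0.13 (SE, log2; unadjusted p = 0.012, adjusted p = 0.22, limma), that of C1qc was -0.31 ± 0.14 (adjusted p = 0.36, limma) and that of C1qa was -0.30 ± 0.16 (adjusted p = 0.46, limma).

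Upstream sequence of Lyz2, which stood apart from the rest, and of C1qa and C1qb, which varied together, is shown so that the windows can be compared. Each run is the 250 bases before the annotated start, 5′ to 3′ in the direction of the gene, from RefSeq's GRCr8 assembly on the minus strand: chr7:54798012-54798261 for Lyz2, chr5:154419934-154420183 for C1qa and chr5:154407828-154408077 for C1qb. Capitals mark GAGGAA, the core of the sequence bound by the macrophage transcription factor PU.1, and GGAAGT, which can overlap it by its first letters, both searched on either strand; no overlap occurred here.
Lyz2: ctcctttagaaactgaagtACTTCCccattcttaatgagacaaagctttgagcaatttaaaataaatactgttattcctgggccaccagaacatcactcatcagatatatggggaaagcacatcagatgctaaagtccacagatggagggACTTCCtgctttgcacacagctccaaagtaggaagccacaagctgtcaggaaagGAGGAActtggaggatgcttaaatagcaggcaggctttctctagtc
C1qa: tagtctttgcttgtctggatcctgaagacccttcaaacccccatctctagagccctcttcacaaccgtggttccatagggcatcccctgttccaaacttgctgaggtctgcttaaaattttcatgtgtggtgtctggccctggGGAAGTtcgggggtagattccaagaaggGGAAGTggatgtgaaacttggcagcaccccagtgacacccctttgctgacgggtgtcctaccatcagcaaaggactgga
C1qb: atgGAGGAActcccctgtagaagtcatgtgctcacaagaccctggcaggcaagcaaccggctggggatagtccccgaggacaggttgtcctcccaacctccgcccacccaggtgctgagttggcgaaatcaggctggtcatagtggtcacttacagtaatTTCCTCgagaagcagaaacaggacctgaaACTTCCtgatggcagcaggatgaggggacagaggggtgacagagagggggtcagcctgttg
GAGGAA occurred in the window of 6 of the 9 members with an entry (Lyz2, Cd5l, Adgre1, C1qb, Cd68 and Csf1r), against 23.3% of all 33469 windows of that length. GGAAGT occurred in 5 of the 9 (Lyz2, Clec4f, C1qa, C1qb and Cd68), against 19.2% of all windows. Lyz2 and C1qb each held both strings while their levels followed different courses across the arrays. A match in these windows is a string of letters only, and binding was not measured.

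Clec4f and Cd5l are the members most closely tied to Kupffer cells in rodents. For Clec4f the day 1 intensities were 1045 at the lowest, 1318 at the median and 1857 at the highest in ozone livers, against 1332, 1578 and 1707 in air livers. The groups overlapped and the difference was -0.20 ± 0.14 (SE, log2; adjusted p = 0.34, limma). It was -0.25 ± 0.16 (SE; adjusted p = 0.56, limma) at the end of day 2. At 18 h Clec4f had 1139, 994, 1165, 813 and 1211 units in ozone livers, against 1192, 1529, 1415, 1362 and 1391 units in air livers. In that group 4 of the 5 ozone arrays were below every air array, and the difference was -0.38 ± 0.16 (SE, log2; adjusted p = 0.29, limma).

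Cd5l had the most negative ozone difference of the members other than Lyz2 at each time. Its day 1 intensity was 584 at the lowest, 784 at the median and 1141 at the highest in ozone livers, against 848, 1071 and 1197 in air livers, a difference of -0.36 ± 0.17 (SE, log2; adjusted p = 0.12, limma). Ozone replicates 1, 3 and 4 lay inside the air range, and without ozone replicate 1 the difference was -0.46 ± 0.18 (SE; adjusted p = 0.047, limma). Over all single-array omissions the adjusted p lay between 0.047 and 0.28, and over all alternatives the difference lay between -0.46 and -0.27. The day 2 difference was -0.32 ± 0.19 (SE; adjusted p = 0.54, limma). At 18 h the ozone livers had 550, 517, 644, 413 and 543 units, against 618, 880, 756, 777 and 832 units in air livers. Only ozone replicate 3 and air replicate 1 crossed, and the difference was -0.52 ± 0.19 (SE, log2; unadjusted p = 0.01, adjusted p = 0.20, limma). The dim second probe set of Cd5l had medians of 87.6 units in ozone livers and 115 units in air livers at 18 h.

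The surface and lysosomal markers followed less uniform courses. Adgre1, which encodes the adhesion receptor known as F4/80 in mice, had 117 at the lowest, 136 at the median and 185 at the highest in ozone livers at the end of day 1, against 148, 174 and 193 units in air livers. Ozone replicates 1 and 3 were inside the air range and the other 4 were at 117 to 137 units. Adgre1 fell by 0.27 ± 0.10 (SE, log2) with an adjusted p of 0.049 (limma), a call lost in 23 of 32 single-array omissions (adjusted p up to 0.13, without day 1 ozone replicate 2) and at an adjusted p of 0.11 without the 2 arrays of low nonspecific binding. Its differences were -0.11 ± 0.11 at the end of day 2 and -0.14 ± 0.11 at 18 h (SE, log2), and neither passed the test.

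Cd163, the scavenger receptor that takes up haptoglobin and haemoglobin, was the member with a positive estimate at both ends of exposure. On day 1 it lay between 233 and 367 units in ozone livers and between 236 and 282 units in air livers, a difference of 0.13 ± 0.10 (SE, log2; adjusted p = 0.35, limma). The difference was 0.11 ± 0.11 (SE; adjusted p = 0.81, limma) at the end of day 2 and -0.19 ± 0.11 (SE; adjusted p = 0.51, limma) at 18 h. At 18 h the ozone livers had 199, 226, 241, 193 and 200 units, against 250, 270, 239, 245 and 218 units in air livers, so 3 ozone arrays were below every air array. The change of its ozone effect between 18 h and day 1 was -0.33 ± 0.15 (SE; adjusted p = 0.13, limma). Cd68, a lysosomal membrane glycoprotein of macrophages, differed by -0.14 ± 0.10, -0.11 ± 0.11 and -0.15 ± 0.11 (SE, log2) at the 3 times in order, with no call.

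Csf1r, the receptor for the growth factors CSF1 and IL-34, differed by 0.05 ± 0.11 (SE, log2; adjusted p = 0.79, limma) between ozone and air livers at the end of day 1. It lay between 373 and 618 units in ozone livers and between 404 and 518 units in air livers. The difference was -0.08 ± 0.12 (SE) at the end of day 2 and -0.24 ± 0.12 (SE; adjusted p = 0.41, limma) at 18 h. At 18 h the intensities were 349, 339, 399, 297 and 361 units in ozone livers, against 411, 440, 427, 413 and 376 units in air livers, and ozone replicate 3 alone reached into the air range.

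**Figure D2:**
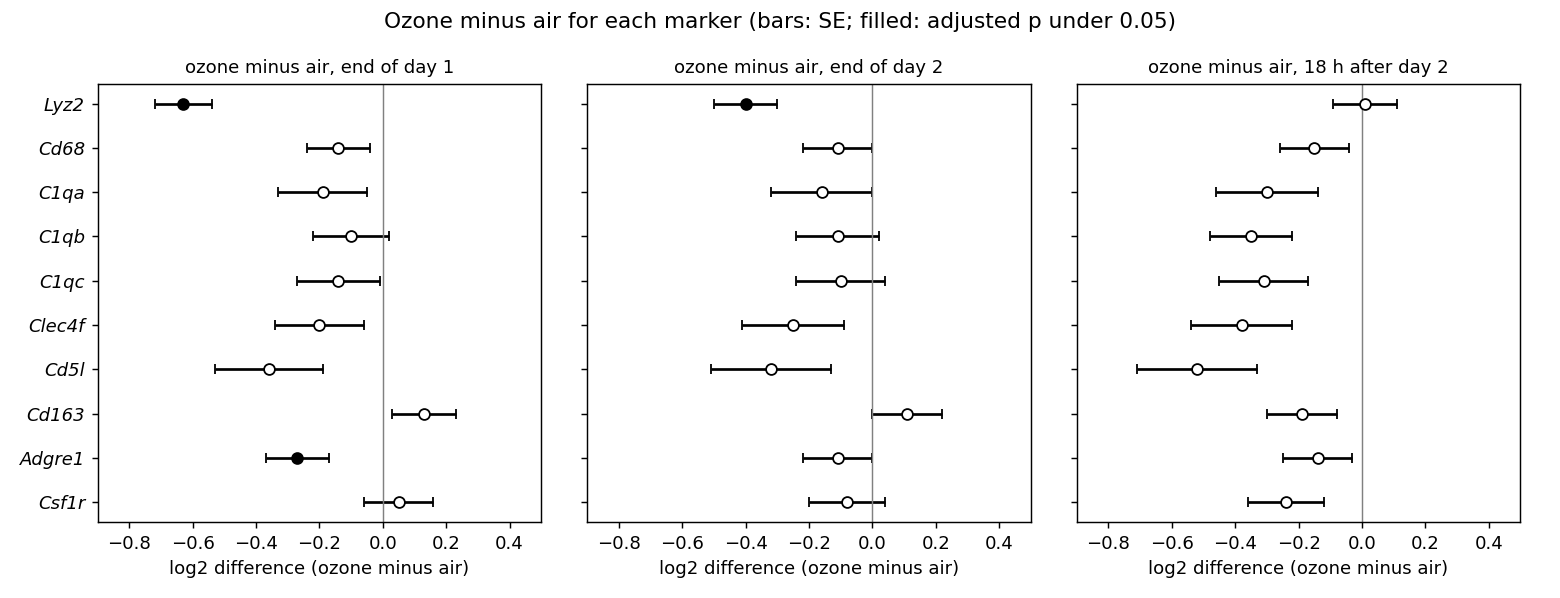
Log2 difference between ozone and air livers (horizontal axis; ozone minus air) for each marker at the 3 times, with SE bars from limma and filled points for an adjusted p under 0.05. Lyz2 is at -0.63 at day 1, -0.40 at day 2 and 0.01 at 18 h, and the other 9 lie between -0.52 and -0.14 at 18 h.

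Counted together at the end of day 1, 2 of 10 members fell and none rose, against 29.5% of all genes called in either direction, 16.4% of all genes being called lower. Estimates were below 0 for 8 of 10 members and for 48.3% of all genes, and the median difference was -0.16 for the members and 0.00 for all genes (log2). On day 2, 1 of 10 members fell, with 0.705% of all genes called and 0.241% called lower. Estimates were below 0 for 9 of 10 members and 49.6% of all genes, with medians of -0.11 and 0.00. On both days the members other than Lyz2 varied together from array to array, so these counts are not of separate observations.

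At 18 h after day 2 none of the 10 members was called by limma, where 1.17% of all genes were. Of the 10, 5 (Cd5l, C1qb, Clec4f, C1qc and Csf1r) had an unadjusted p under 0.05, as had 12.1% of all genes. Estimates were below 0 for 9 of 10 members and 39.4% of all genes, with medians of -0.27 for the members and 0.01 for all genes. For 7 of 10 members every ozone array was below the air mean (Cd5l, Clec4f, Cd163, C1qa, C1qb, C1qc and Csf1r), as for 8.25% of all genes. These 7 are not separate observations, since the markers varied together from array to array.

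Levels also differed between the harvest times. Among ozone livers, Cd5l was lower at the end of day 2 than at the end of day 1 by 0.66 ± 0.18 on the log2 scale (SE; log2 difference -0.66, adjusted p = 0.014, limma), Csf1r had a difference of -0.35 ± 0.11 (SE; adjusted p = 0.032) and Clec4f one of -0.44 ± 0.15 (SE; adjusted p = 0.048). These 3 of 10 members were called lower, against 6.04% of all genes, and all 10 estimates were below 0, as were 46.1% of all genes. Members other than Lyz2 varied together from array to array, so these are not 10 separate observations. The Clec4f call was lost in 21 of 32 single-array omissions (adjusted p up to 0.16, without day 2 ozone replicate 4) and the Csf1r call in 6 (adjusted p up to 0.10, without day 1 ozone replicate 3). Without the 2 arrays of low nonspecific binding none of the 3 was called, and Cd5l had an adjusted p of 0.051. Without the 4 arrays marked in the earlier look, which are part of the 9 nearer to another group, Cd5l alone was called (adjusted p = 0.017, limma).

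Air livers had a similar set of estimates without a call. For the end of day 2 minus the end of day 1 in air livers, all 10 estimates were below 0 (44.9% of all genes) with a median of -0.28, and 9 of 10 had an unadjusted p under 0.05, as had 6.66% of all genes. None was called by limma, and only 0.0086% of all genes were called in that contrast. Cd5l differed by -0.70 ± 0.18 (SE, log2; adjusted p = 0.54), and by -0.90 ± 0.17 (SE; adjusted p = 0.024) without day 2 air replicate 1, which was high for all 9 members other than Lyz2. Over all single-array omissions its adjusted p lay between 0.024 and 1, and over all alternatives the difference lay between -0.90 and -0.46. Time of harvest and day of exposure cannot be told apart from any handling that differed between harvests. Between 18 h and the end of day 2 no member was called in air livers, where 0.12% of all genes were, and 9 of 10 estimates were above 0, while 53.1% of all genes were below 0. The members other than Lyz2 varied together from array to array, so neither set of counts in air livers is of separate observations.

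Ordered by group mean, day 1 air livers were highest for 8 of the 10 members, and day 1 ozone livers were highest for Cd163 and Csf1r. Day 2 ozone livers were lowest for Lyz2, Cd5l, Clec4f, Adgre1, C1qa and Cd68, and 18 h ozone livers were lowest for Cd163, C1qb, C1qc and Csf1r. The ranges of neighbouring groups in that order overlapped in all 50 pairs of neighbours, so the order itself is not resolved beyond the spread between arrays.

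Within groups the members fell into a block of 9 and Lyz2. After the group means were removed, Pearson's r over the 32 arrays was between 0.68 and 0.97 in all 36 pairs of the 9 members other than Lyz2 (median 0.88), and Spearman's rho was between 0.66 and 0.96. All 36 pairs passed a permutation test within groups (two-sided, 100000 resamples; adjusted p between 1.6e-05 and 0.00059 for r over the 45 pairs of the family), and 28 of them were at the smallest p that the permutations can give, 1e-05. The strongest pair was C1qa with Cd68 (r = 0.97) and the weakest was Cd163 with Adgre1 (r = 0.68). Leaving out the 2 arrays farthest from the median of the first member gave r between 0.60 and 0.96. These within-group correlations were not computed for pairs of other genes. Whether a block this close is particular to these markers was therefore not tested.

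Lyz2 did not share that variation to the same degree. Its r with the other 9 members was between -0.08 (Cd163) and 0.40 (Cd5l), and none of the 9 passed for r (lowest adjusted p = 0.09, permutation). For rho, the pair with Cd5l passed (rho = 0.41, adjusted p = 0.041, permutation) and the other 8 did not. Whether the correlations of Lyz2 are smaller than those among the other 9 was not tested by a test of the difference itself. All pairs share the same 32 arrays.

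**Figure D3:**
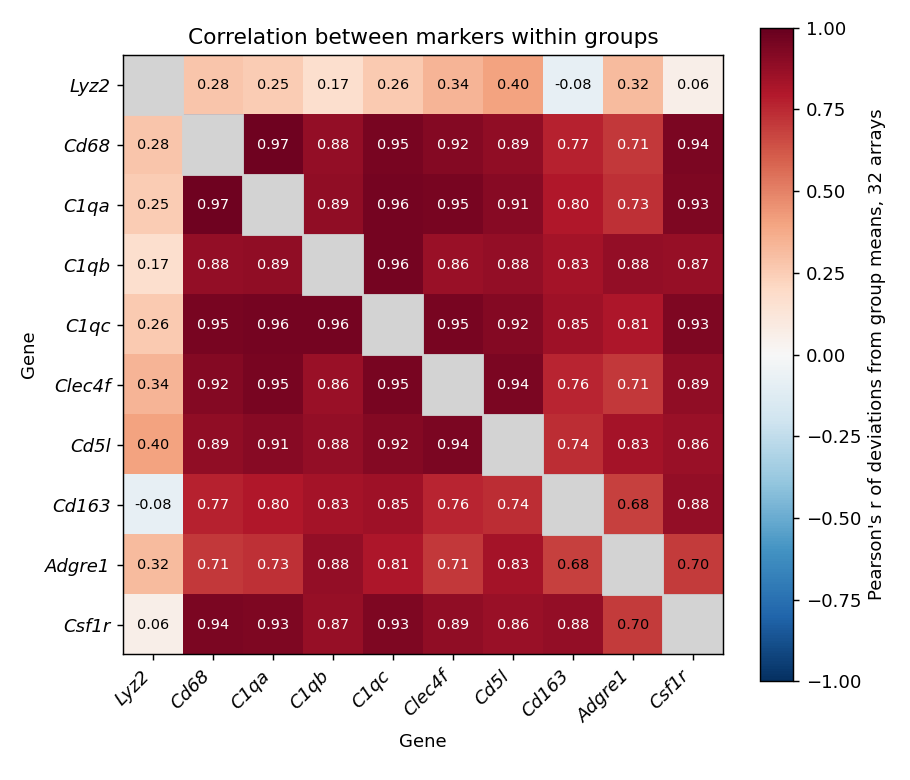
Pearson's r between the markers (both axes list the genes) after removal of group means, over 32 arrays, with the value printed in each cell and the diagonal in grey. The 9 markers other than Lyz2 correlate at 0.68 to 0.97 with one another, and Lyz2 correlates with them at -0.08 to 0.40.

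The mean of the 9 members other than Lyz2, each centred on its mean over 32 arrays, shows which livers carried the shared variation. On day 1 it was -0.17 at the lowest, 0.06 at the median and 0.50 at the highest in ozone livers, against 0.05, 0.31 and 0.36 in air livers (log2). Ozone replicates 1 and 3 stood at 0.39 and 0.50, at or above every air array, while their Lyz2 was -0.29 and -0.21, below every air array. Ozone replicate 3 and the highest air array, replicate 2 at 0.36, were the 2 arrays of low nonspecific binding. On day 2 the mean lay between -0.50 and 0.01 in ozone livers and between -0.37 and 0.43 in air livers, where replicates 1 and 2 stood at 0.43 and 0.13 and the other 3 at -0.37 to -0.30. Over the tested genes, day 2 air replicates 1 and 2 lay nearer to the day 1 air mean than to their own. At 18 h it lay between -0.47 and -0.01 in ozone livers and between 0.02 and 0.21 in air livers. Those 2 ranges of the mean did not overlap, with the nearest arrays at -0.01 and 0.02. Each single member overlapped between ozone and air livers at 18 h, while 0.869% of all genes did not, with ozone lower. That share is for single genes. No such share was computed for means of 9 genes, and the separation of the mean was not tested.

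**Figure D4:**
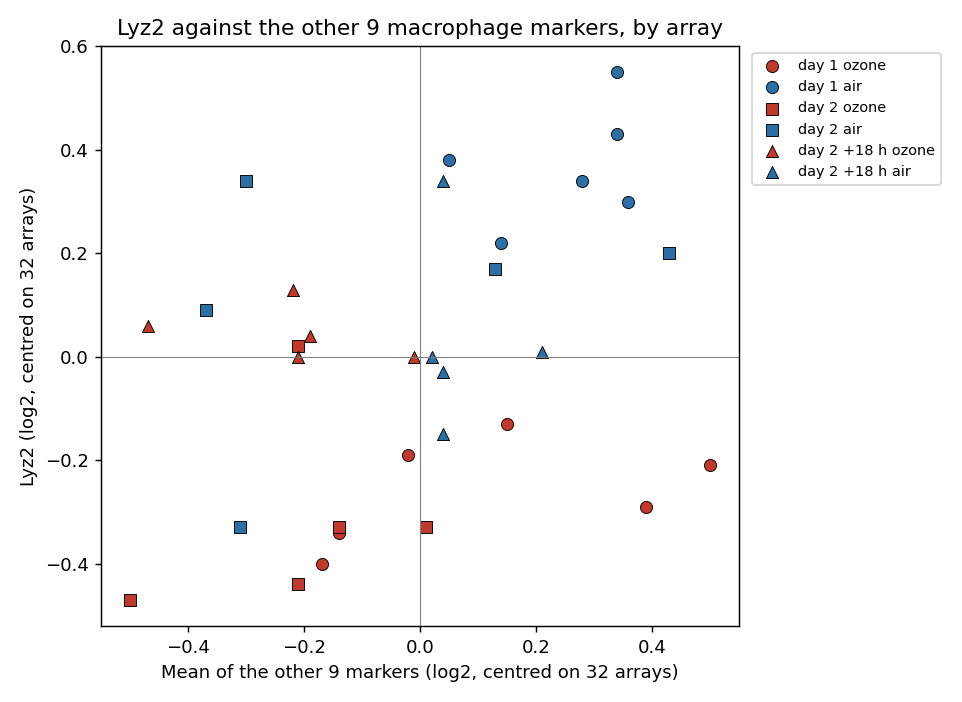
Lyz2 (vertical axis) against the mean of the other 9 markers (horizontal axis), both as log2 levels centred on their means over 32 arrays, with ozone in red, air in blue and a marker shape for each time. Day 1 ozone arrays lie at -0.40 to -0.13 on the Lyz2 axis but spread from -0.17 to 0.50 on the other, and 18 h ozone arrays lie left of the 18 h air arrays.

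The genes whose levels ran closest to Lyz2 over the 32 arrays were ranked with the members left out and unannotated loci (LOC and RGD symbols) passed over. They were Sqstm1 (r = 0.93), which encodes the autophagy receptor p62, Ccnd2 (r = 0.91), which encodes cyclin D2, Mbl2 (r = 0.90), which encodes a mannose-binding lectin of plasma made by hepatocytes, Ppp2r2b (r = 0.90), which encodes a subunit that directs protein phosphatase 2A to substrates, and Ifgga2l1 (r = 0.90). Sqstm1 fell in ozone livers by 0.68 ± 0.09 at the end of day 1 and by 0.49 ± 0.10 at the end of day 2 (SE, log2; adjusted p = 1e-06 and 0.025, limma) and had a difference of -0.13 ± 0.10 at 18 h. The member closest to Lyz2 by the same measure was Adgre1 (r = 0.55), and Cd163 had r = -0.17. These correlations include the differences between groups and are descriptions over 32 arrays.

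The genes closest to the mean of the 3 C1q chains, ranked by the same rule, were different in kind. They were Fcna (r = 0.98), which encodes the lectin ficolin A, Cybb (r = 0.95), which encodes the membrane subunit of the phagocyte NADPH oxidase, Ms4a6bl1 (r = 0.93), Pltp (r = 0.93), which encodes phospholipid transfer protein, and RT1-Db1 (r = 0.92), which encodes a class II histocompatibility beta chain of the rat. None of these 5 was called between ozone and air at any time. The members Cd68 (r = 0.97), Clec4f (0.96), Cd5l (0.94) and Csf1r (0.93) were as close, and Lyz2 had r = 0.35.

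Other genes of macrophages were read from lists chosen by function, and the day 1 counts below stand against the 16.4% of all genes called lower and the 29.5% called in either direction at that time. Of 6 further Kupffer cell genes tested, 2 fell in ozone livers at the end of day 1 and none rose. They were Slc40a1, the iron exporter ferroportin (-0.58 ± 0.11, adjusted p = 9.5e-05), and Nr1h3, the nuclear receptor LXR alpha (-0.26 ± 0.07, adjusted p = 0.0024; log2 ± SE, limma). Which liver cells these 2 falls came from was not tested. Of the other tested genes shown, Id3 differed by -0.18 ± 0.10 and Lyve1, also a marker of sinusoidal endothelium, by 0.08 ± 0.10, without a call. Timd4, Vsig4, Marco, Slc11a1 and Cd38 had no single-gene probe set, and Spic was below the filter. The summed intensity of the 7 measured genes lay between 3825 and 4661 units in ozone livers and between 4695 and 5085 units in air livers at the end of day 1, and between 5010 and 5690 units in ozone livers and 4850 and 5249 units in air livers at 18 h.

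Among 10 phagocyte receptor genes, 4 fell in ozone livers at the end of day 1 and none rose. They were the Fc receptors Fcgr1a (-0.21 ± 0.07) and Fcgr3a (-0.23 ± 0.08), the signalling adaptor Tyrobp (-0.25 ± 0.09) and the receptor tyrosine kinase Axl (-0.21 ± 0.07; log2 ± SE, adjusted p between 0.023 and 0.042, limma). Among 11 lysosomal genes 2 fell, Lipa, the lysosomal acid lipase (-0.43 ± 0.12, adjusted p = 0.0062), and Grn, progranulin (-0.21 ± 0.07, adjusted p = 0.03, limma), a share near the 16.4% of all genes. Hexa, a hexosaminidase subunit, differed by -0.15 ± 0.06 and Ctsz, cathepsin Z, by -0.10 ± 0.07, without a call. Among 7 genes of the CSF1 axis and myeloid transcription factors 2 fell, Maf (-0.31 ± 0.09) and Cebpa (-0.19 ± 0.07), of which Cebpa is also a hepatocyte factor. The cytokine receptor chain Csf2rb differed by 0.06 ± 0.04 and the ligand Il34 by 0.03 ± 0.02, without a call, and Spi1 and Irf8 had no single-gene probe set. Lipa, Maf and Slc40a1 had positive estimates at 18 h (0.35 ± 0.13, 0.12 ± 0.10 and 0.19 ± 0.12), none of them called.

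The partners of C1q and CD163 were read in the same way. Of 9 complement genes, 5 fell at the end of day 1 and none rose (16.4% of all genes were called lower), among them Mbl2 (-0.61 ± 0.12), the protease C1s (-0.28 ± 0.07), C2 (-0.27 ± 0.07) and the lectin-pathway protease Masp2 (-0.15 ± 0.05; log2 ± SE, adjusted p between 0.00021 and 0.015, limma). These components are made largely by hepatocytes. None of the 3 C1q chains passed. Their estimates were -0.19 ± 0.14 for C1qa, -0.10 ± 0.12 for C1qb and -0.14 ± 0.13 for C1qc (log2 ± SE). These were smaller in size than those of Mbl2, C1s and C2. The median over the 9 complement genes, called or not, was -0.15, of similar size to the chains. A difference between the chains and these genes was not tested. Of 6 haem genes 1 fell, Blvrb, a biliverdin reductase (-0.20 ± 0.06, adjusted p = 0.013, limma), and Hmox1, haem oxygenase, differed by 0.44 ± 0.18 (adjusted p = 0.073). The haem transporter Slc48a1 differed by -0.10 ± 0.05 and hemopexin, Hpx, by -0.07 ± 0.04, without a call. At the end of day 2 and at 18 h no gene of these 6 lists was called.

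Markers of other cells were read beside the members, and their part in the results was not tested. Against 16.4% of all genes called lower at the end of day 1, the count called lower was 5 of 9 common leukocyte genes (Lcp1 -0.35 ± 0.09, Arhgdib -0.17 ± 0.05), 3 of 8 monocyte and neutrophil genes (Cd48 -0.29 ± 0.09, Ly6c -0.39 ± 0.12), 3 of 9 endothelial genes (Tek -0.17 ± 0.05, Stab2 -0.20 ± 0.06) and 1 of 11 lymphocyte genes (Prf1 -0.19 ± 0.05). It was 1 of 9 stellate cell and fibroblast genes (Lrat -0.34 ± 0.11), 1 of 6 cholangiocyte genes (Epcam -0.31 ± 0.08), 1 of 9 hepatocyte genes (Ahsg -0.14 ± 0.05), 0 of 3 erythroid genes and 0 of 6 pancreatic and fat genes (log2 ± SE, limma). No gene of these lists was called higher at that time. The other genes named from them, none of them called, were Nkg7 (-0.06 ± 0.03), Col1a1 (-0.10 ± 0.04), Krt7 (0.06 ± 0.03), Apob (-0.09 ± 0.05), Ahsp (0.05 ± 0.03), Slc4a1 (0.04 ± 0.03), Cel (0.07 ± 0.04) and Cfd (-0.11 ± 0.09). Over the 10 common leukocyte genes measured, the summed intensity lay between 2108 and 2628 units in ozone livers and between 2440 and 2801 units in air livers. The neutrophil genes S100a8, Csf3r and Cxcr2 and the monocyte gene Ccr2 were below the filter. On day 2 none of these genes was called, and at 18 h Stab2, a scavenger receptor of sinusoidal endothelium, was called higher (0.28 ± 0.07).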

How the data were processed

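The deposited table holds 31139 probe sets in 32 arrays, with linear intensity values deposited by the authors. The submitters' processing notes name PLIER and Affymetrix Expression Console; the sources used here give no version, option or build. Values ran from 30.5 to 15558 and none was missing, and all columns were matched to samples by their labels. A probe set has no read depth, so the number of arrays limits the precision.

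From the deposited intensity values, log2(value + 16) was computed without further scaling; the offset makes fold changes of dim genes smaller. Probe sets were named from the platform annotation (19062 with 1 gene, 573 with several, 11407 with none, 97 controls), and 18983 gene IDs were found in RefSeq. The brightest probe set stood for each gene, and genes under the 25th percentile of mean log2 level (7.11) were left out. The means of the 6 groups were fitted with limma 3.58.1 (R 4.3.3; lmFit, eBayes with intensity trend), without a replicate block, with p-values adjusted by Benjamini-Hochberg over 11625 genes and a threshold of 0.05. The script was tested on simulated data. Correlations used deviations from group means and permutation within groups (Python 3.11.15, numpy 2.4.6, scipy 1.17.1).

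All members are named. From each other list, the 2 genes with the smallest p for ozone against air at the end of day 1 are named, or 4 where the list concerns macrophages. The 5 genes closest by r to Lyz2 and to the C1q mean are also named, with members left out and unannotated loci passed over. Members and lists were chosen with earlier results of these data known. Replicate numbers did not pair the samples: over 16 same-numbered pairs of ozone and air arrays, the correlation of deviations lay between -0.58 and 0.26, and 1 was over 0.1. Alternatives were other offsets (1 and 64), scalings, filter, probe-set rule, samples, weights, trend, a replicate block, each array left out, and 2 sets of arrays left out that were chosen after seeing the data.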

Additional observations from a re-analysis of the deposited data

Results flagged for a closer look

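Lyz2 in day 2 ozone replicate 5 stood apart from the other 4 arrays of its group at a log2 level of 10.06, with a gap that was 0.72 of the group's range. Of 60 combinations of member and group examined it was the only such case. The cut-off lets about 1 in 20 combinations pass by chance, so 1 case in 60 is no more than chance gives. That count does not settle how this one value arose. Over the tested genes, day 2 ozone replicate 5 also lay nearer to the 18 h ozone mean than to its own. The ozone effect on Lyz2 differed between harvest times, by 0.64 on the log2 scale for 18 h after day 2 minus the end of day 1, in the test of the difference itself (adjusted p = 0.00083, limma).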

How the results depend on the processing

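Over 4400 values of single members under the alternatives, 4182 kept their direction and their side of the threshold, 95 lost the call, 10 gained it and 113 turned sign without a call; none turned sign with a call. The Lyz2 difference at the end of day 1 stayed between -0.68 and -0.59 throughout. The count of members called for ozone against air at the end of day 1 was 1 with quantile normalization, with array medians set equal, with no filter, with the mean of all probe sets, with no intensity trend and without the 2 arrays of low nonspecific binding, 3 with array weights, where Cd5l joined as lower (adjusted p = 0.044), and 1 to 3 when single arrays were left out. At the end of day 2 it was 0 with array medians set equal, with no filter, with only the groups compared, under the replicate block and without the 2 arrays, 2 with array weights, where Cd163 joined as higher (0.30, adjusted p = 0.033), and 0 to 1 when single arrays were left out. Under the replicate block Lyz2 at day 2 was -0.40 ± 0.11 (SE; adjusted p = 0.096, limma), and Clec4f lost its call between days in ozone livers (adjusted p = 0.054). At 18 h it was 0 in every alternative. For the change of the ozone effect from day 2 to 18 h it was 2 with array weights, 1 without the 4 arrays marked in the earlier look and 0 to 1 when single arrays were left out. For the change from day 1 it was 0 at day 2 and 1 at 18 h in every alternative. For day 2 against day 1 it was 1 in air livers with array weights (0 to 1 with single arrays left out), and in ozone livers 1 with only the groups compared, with array weights and without the 4 arrays, 0 without the 2 arrays, and 1 to 3 with single arrays left out. For 18 h against day 2 it was 1 in air livers without the 4 arrays (0 with any single array left out) and 0 to 1 in ozone livers with single arrays left out. The cause of these shifts was not tested. Adjusted p-values close to 0.05, dim Adgre1 and 5 or 6 arrays per group limit what can be resolved.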
